A study of Homo sapiens with 27 samples.

Results

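Thick bipyramids and dumbbells are 2 shapes in which crystals of calcium oxalate dihydrate were grown, and the comparison here is between cells given the one and cells given the other. It rests on the 4 libraries titled TK (A to D, thick bipyramids) and the 4 titled DB (A to D, dumbbells), 8 of the 27 libraries of the study. The cells were MCF10DCIS.com, an established human breast line of MCF10A origin that forms lesions like ductal carcinoma in situ in mice, and the labels call it premalignant. Each flask was seeded with 500000 cells and incubated for 6 h, and crystals then went in at 0.1 mg/mL for TK as for DB. The 7 untreated libraries (Control A to G) carry no crystals and served to bridge the runs of serial numbers described below. All groups are the same line, with no genotype or drug between them. Whether the 4 libraries of a shape are separate cultures is not stated in the labels. The p-values then cover only the spread between libraries, part of which may be technical. The time for which crystals stayed on the cells is not stated either.

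Calcium oxalate is found as microcalcifications in breast tissue, and the dihydrate is the form that grows as bipyramids when its faces are well developed. Cells meet such a particle through surface receptors and the matrix they lay down. Matrix metalloproteinases and the urokinase system cut that matrix, integrins and laminins anchor basal epithelial cells to it, and cadherins and desmosomes join the cells to each other. Growth factor signals through the kinase ERK switch on immediate early transcription factors within minutes, and the E2F factors switch on the genes that copy DNA before a cell divides.

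The libraries were placed in 3 runs by cutting the serial numbers in the deposited names at points set by the definition of the comparison. The labels do not say what the numbers stand for or where a run begins. Run 1 (1 to 10) holds Control A and B and DB A and B, run 2 (11 to 22) holds Control C to F, DB C and TK A to D, and run 3 (23 to 27) holds Control G and DB D. No TK library lies outside run 2, and DB C is the only dumbbell library within it. Run 2 differed from run 1 in 3914 of the 15646 genes tested, 25% of them, in the fit described next. TK was therefore compared with DB in 1 edgeR quasi-likelihood model of 15 libraries with a term for the run, which takes the run's effect from the untreated and dumbbell libraries. TK was also compared with DB C alone inside run 2, where the spread comes from the TK and untreated libraries and DB C is assumed to vary like them. Genes with an adjusted p (Benjamini-Hochberg) under 0.05 are called. A gene is said to hold against DB C alone when it is called with the run term, all 4 TK libraries lie on the same side of DB C, and the test inside run 2 calls it in the same direction.

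Total counts ran from 15859690 to 18803533 in TK, from 16891449 to 35450431 in DB and from 13963705 to 32537829 in the untreated libraries. The mean fragment length was 222.9 to 243.2 nt in TK and 233.4 to 319.1 nt in DB. Chi-square per degree of freedom was 2.387 to 7.717 for pairs of TK libraries and 9.878 to 59.64 for pairs of DB libraries. No pair matched within sampling noise. The measure grows with depth, and DB spans 3 runs where TK lies in 1, so it does not rank the spread of the groups. The pair DB A and B, both of run 1, gave 9.878. Markers of the basal breast line were present throughout, with the keratin gene KRT5 at 2010 to 3320 CPM (each count scaled to the size of its TMM-adjusted library), while the hormone receptor genes ESR1 and PGR reached at most 2.83 and 0.123 CPM and the leukocyte gene PTPRC at most 0.172 CPM. The list of 14 liver transcripts summed to 54.2 to 72.6 CPM in TK and 123 to 201 CPM in DB, most of it SERPINA1, which breast epithelium can also make. The liver gene ALB was highest in the untreated library Control D, at 8.91 CPM. It reached 6.50 CPM in DB C and 4.91 CPM in TK A and was at 0 in DB D. Of 14 fibroblast and endothelial markers the summed level was 13.1 to 17.9 CPM in TK and 18.5 to 27.5 CPM in DB, and of 14 immune markers 8.17 to 9.53 and 9.77 to 28.8 CPM. In no such list did a measured member differ between TK and DB, except SERPINA1 and HP among the liver transcripts, which were lower in TK. The part of other cells' RNA in the results was not tested.

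In cells with thick bipyramids 12 of 17 matrix protease and urokinase system genes and 11 of 19 integrin and laminin genes were lower than in cells with dumbbells, and no gene of either list was higher. Of the immediate early genes 12 of 27 were lower and of the junction genes 8 of 23, and again none was higher. DNA replication genes were higher in 19 of 22 cases, cell division genes in 16 of 22, 3 of which hold against DB C alone, and heat shock genes in 12 of 18, with none lower in these 3 lists. Of 15646 genes tested, 1118 (7.15%) were higher and 999 (6.39%) lower in TK than in DB. All 2117 had the same sign against DB C, which is itself 1 of the 4 DB libraries in the model, and in 2104 every TK library lay on the called side of DB C. Inside run 2 the test called 377 genes (2.41%) higher and 425 (2.72%) lower. Those that hold against DB C alone were 339 higher (2.17%) and 370 lower (2.36%), 709 in all. The 4 TK and 4 DB libraries did not overlap in 4472 genes (28.6%), a count that the run shift enters since TK lies in 1 run. Falls were the larger changes: of called genes with at least a 2-fold difference 140 were lower and 23 higher, and of those that hold 74 were lower and 9 higher.

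**Figure D1:**
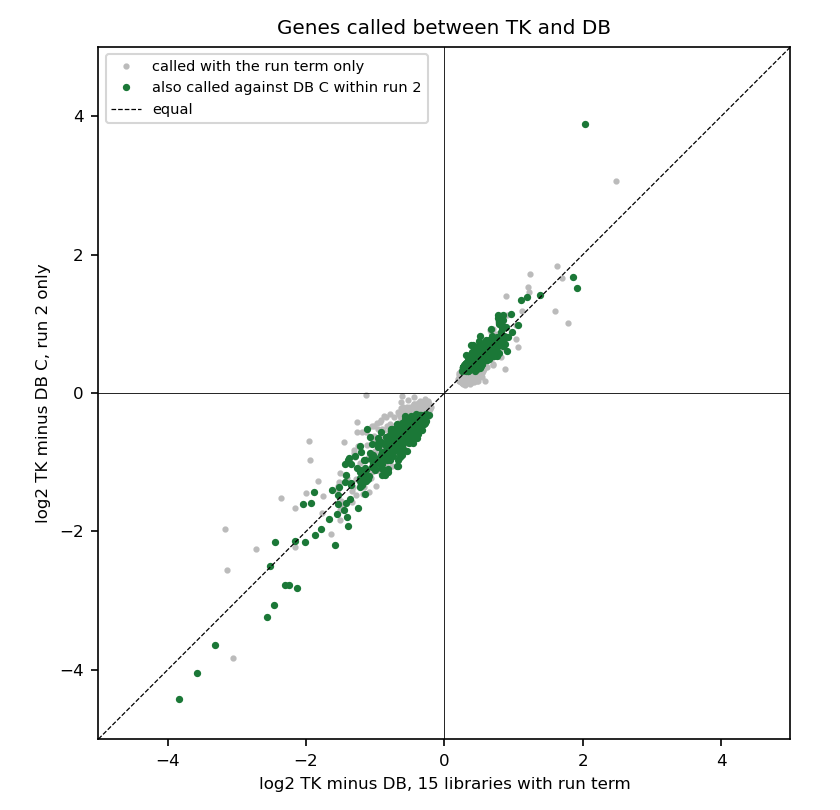
Each point is 1 of the 2117 genes called between TK and DB; the horizontal axis is its log2 fold change (TK minus DB) in the 15-library model with the run term and the vertical axis that of TK minus DB C inside run 2, both drawn from -5 to 5, which leaves 6 called genes outside, 2 of them among those that hold. The 709 genes that hold against DB C alone are green and lie along the line of equal values, with the falls reaching further from 0 than the rises.

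The 2 crystal groups are compared through the same untreated libraries, so their differences from control are given side by side and not as separate support. With the run term, TK differed from control in 1510 genes higher (9.65%) and 1130 lower (7.22%), and DB in 1034 higher (6.61%) and 720 lower (4.6%). The model assumes that dumbbells act alike in each run. Only 1 gene (0.00639%) had a dumbbell effect that differed between run 1 and run 2 at an adjusted p under 0.05, with 669 at an unadjusted p under 0.05 and 29 called by DESeq2. Run 2 adds 1 dumbbell library to that test, so it can miss differences. The median log2 difference over all genes tested was 0 in each of these comparisons.

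Of the genes that hold and averaged at least 5 CPM over TK and DB, the proteases MMP10 and MMP1 fell furthest. Their means were 0.76 and 3.64 CPM in TK and 32.8 and 101 CPM in DB, so they passed that level through DB. Of 17 measured genes of proteases, their activators and inhibitors, 12 were lower in TK than in DB and none higher, and 9 of the 12 hold against DB C alone. The list's median log2 difference was -0.68, and -0.62 inside run 2, against 0 over all genes. Relative to control the median was -0.41 in TK, with 10 members lower and 1 higher, and 0.29 in DB, with 7 higher and none lower.

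MMP10, stromelysin-2, which degrades matrix proteins and activates other proteases (chromosome 11, 102770503 to 102780628), stood at 0.711, 0.853, 0.494 and 0.977 CPM in TK A to D and at 33.5, 32.2, 12.7 and 53 CPM in DB A to D. Inside run 2 the untreated libraries had 4.02, 5.04, 4.39 and 3.0 CPM, and outside it 23.9, 21.5 and 23.3 CPM. Each TK library thus lay below every untreated library, and DB C above those of its own run. The TK values rest on 12, 14, 8 and 19 reads. The log2 difference between TK and DB was -3.57 (SE 0.30, adjusted p = 1.1e-06) and inside run 2 it was -4.04 (adjusted p = 7.1e-06). MMP1, the interstitial collagenase that cuts fibrillar collagen and lies beside MMP10 (chromosome 11, 102789920 to 102798160), had 3.08, 5.00, 2.90 and 3.60 CPM in TK and 108, 102, 45.4 and 148 CPM in DB. Its untreated level was 14.3 to 19.9 CPM in run 2 and 62.5 to 75.4 CPM elsewhere. The difference was -3.32 (SE 0.21, adjusted p = 9.3e-08), with -2.30 for TK against control and 1.02 for DB. Both genes thus lay below the untreated cells of run 2 with thick bipyramids and above those of their run with dumbbells.

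MMP9, a gelatinase, was low throughout, with at most 0.257 CPM in TK against 1.09 to 7.08 CPM in DB (log2 -2.53, SE 0.48, adjusted p = 0.0022). MMP2, the other gelatinase, had 13 to 16.9 CPM in TK and 31.4 to 42.5 CPM in DB (-0.86, SE 0.15). The urokinase receptor gene PLAUR had 59.3, 57.0, 62.7 and 59.3 CPM in TK and 183, 148, 131 and 197 CPM in DB, a difference of -1.22 (SE 0.12, adjusted p = 1.3e-05). Its ligand PLAU differed by -0.58 (SE 0.09), and unlike the receptor lay above control in both groups, by 0.32 in TK and 0.90 in DB. TIMP1, an inhibitor of metalloproteinases, was lower in TK too, at 60.2 to 67.6 CPM in TK and 122 to 366 CPM in DB (-1.38, SE 0.19, adjusted p = 0.00018). Its untreated level was 127 to 180 CPM in run 2, above DB C, and 177 to 235 CPM elsewhere. TK lay below control (-1.09), and DB was not called against it (0.29, adjusted p = 0.22). Between TK and DB the sheddase ADAM17 differed by -0.38 (SE 0.07). SERPINB2, MMP28 and MMP14 were called with the run term but do not hold against DB C alone, and in SERPINB2 the TK C library (13.9 CPM) lay above DB C (13.1 CPM). The inhibitor genes TIMP2 and TIMP3 (-0.09 and -0.21) and the protease genes MMP7, MMP15 and ADAMTS1 (0.09, 0.37 and 0.63) were not called.

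**Figure D2:**
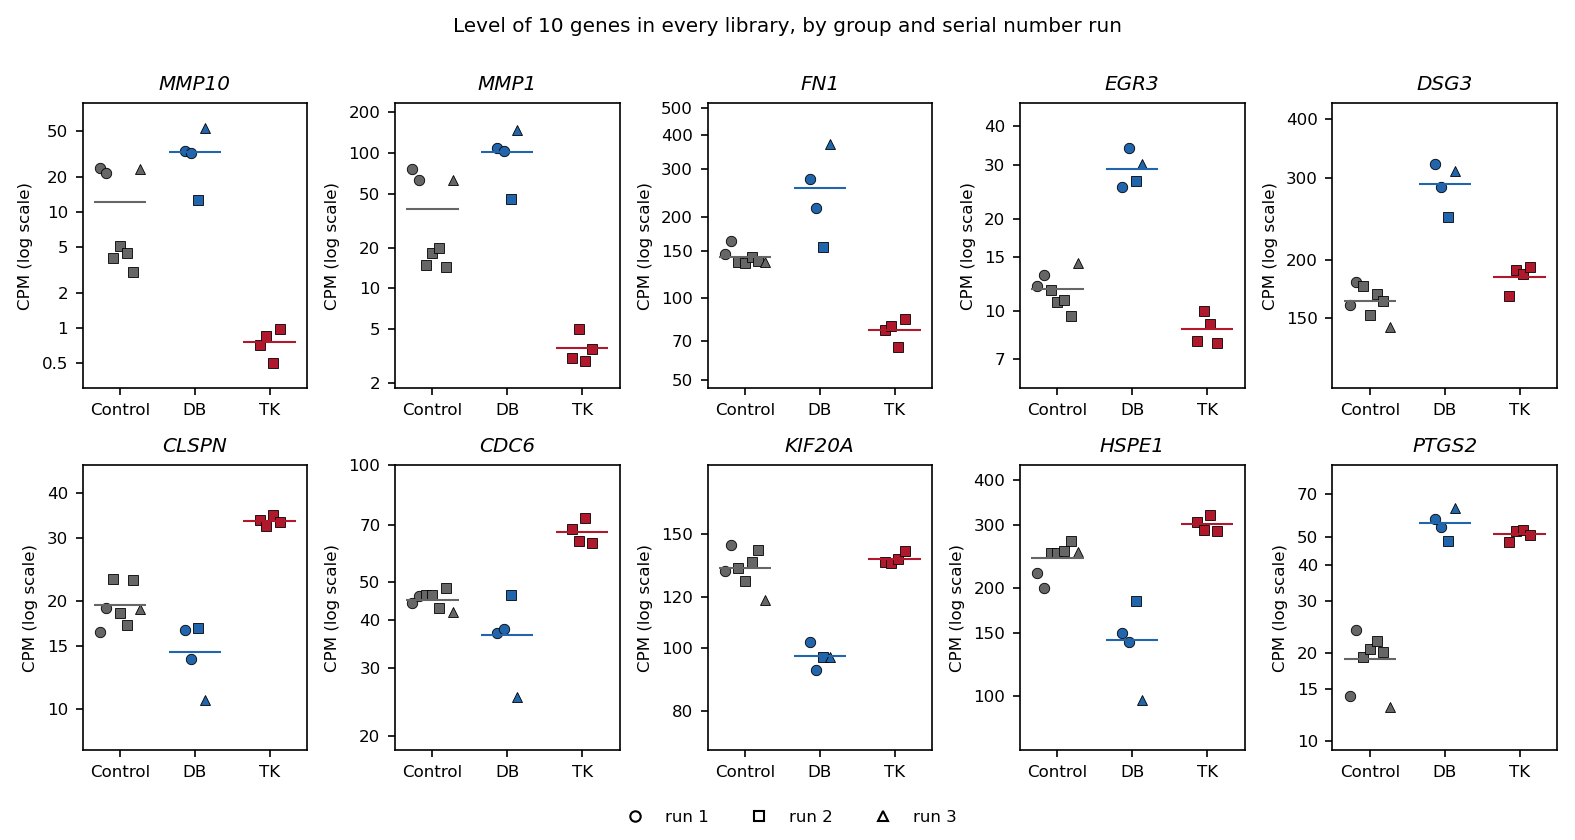
The level of 10 genes in every library in CPM on a log scale, grouped as untreated (Control), dumbbells (DB) and thick bipyramids (TK), with circles, squares and triangles for runs 1, 2 and 3 and a line at each group's arithmetic mean. For MMP10, MMP1 and FN1 the TK libraries lie below both other groups, for EGR3 and DSG3 the DB libraries stand above the others, and for PTGS2 both crystal groups lie above control.

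The promoters of MMP10 and PLAUR are shown because metalloproteinase and urokinase receptor genes are textbook targets of AP-1. That factor is formed by FOS and JUN proteins, and of their genes only FOS is described below. The sequences are RefSeq's (GRCh38.p14), the 250 bases before each gene's start, 5′ to 3′ on the gene's strand. Capitals mark TGANTCA, a motif that is its own reverse complement, so that 1 search covers both strands. MMP10 lies at chr11:102780629-102780878 and PLAUR at chr19:43670170-43670419, each on the minus strand.
MMP10: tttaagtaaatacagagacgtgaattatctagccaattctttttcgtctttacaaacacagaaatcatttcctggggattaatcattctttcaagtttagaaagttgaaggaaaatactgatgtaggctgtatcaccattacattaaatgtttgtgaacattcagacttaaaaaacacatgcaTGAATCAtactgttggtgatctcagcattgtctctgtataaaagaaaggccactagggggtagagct
PLAUR: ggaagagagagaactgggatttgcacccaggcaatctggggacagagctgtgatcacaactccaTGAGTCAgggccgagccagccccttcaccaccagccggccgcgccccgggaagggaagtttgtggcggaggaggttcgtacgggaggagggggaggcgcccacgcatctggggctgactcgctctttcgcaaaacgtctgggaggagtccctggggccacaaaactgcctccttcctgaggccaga
The match begins 67 bases before the start of MMP10 and 186 bases before that of PLAUR. Of 35116 promoter windows of this length 6.57% hold the motif. Only 10 of the 20 genes on the protease list had a window, too few for a share over the list. Of their 11 windows 4 hold the motif, among them those of MMP10 and PLAUR. The windows shown both hold it and so do not stand for the list. MMP1 and MMP9 were not matched to a window. A match describes the letters and does not show that a factor binds there.

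Attachment genes were lower in TK. Of 19 integrin, laminin and associated genes 11 were lower than in DB and none higher, with 5 that hold against DB C alone and a median of -0.33 (-0.23 inside run 2). LAMB3 encodes a chain of laminin-332, the anchor of basal epithelium. It had 581 to 650 CPM in TK and 1587, 1664, 947 and 2497 CPM in DB. The untreated libraries had 835 to 1112 CPM in run 2, which surround DB C, and 1224 to 1668 CPM elsewhere. LAMB3 differed between TK and DB by -0.79 (SE 0.12, adjusted p = 0.0004) and by -0.62 inside run 2. LAMA3, which encodes another chain of it, was lower by the run term model (-0.65, SE 0.12) but not inside run 2 (-0.34, adjusted p = 0.074). ITGB4, whose product binds laminin-332 in hemidesmosomes, differed by -0.34 (SE 0.09) and ITGB5 by -0.47 (SE 0.09), and both hold. ITGB6 holds with -0.30 (SE 0.07). ITGA2 and CD44, the collagen and hyaluronan receptors, were called at -0.49 and -0.39 but do not hold. Relative to control, 8 of the 19 genes were lower in TK and 1 higher, and 7 were higher in DB and none lower. Against the untreated libraries of its own run, the list's median was 0.22, 0.25 and 0.34 in DB A, B and D. It was 0.02 in DB C, the dumbbell library of the TK run, and -0.23 to -0.10 in the TK libraries.

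Among 17 mesenchymal and matrix genes 4 were lower in TK and none higher (median -0.17). FN1, the fibronectin gene (chromosome 2, 215360440 to 215436172), had 76.5, 79.0, 66.2 and 83.8 CPM in TK and 276, 216, 155 and 370 CPM in DB. The untreated libraries held between 136 and 163 CPM with little run effect, above every TK and mostly below the DB libraries. The difference was -1.44 (SE 0.18, adjusted p = 8.1e-05), with -0.76 for TK and 0.68 for DB against control. LOXL2, an enzyme that crosslinks collagen, had 12.7, 10.1, 11.8 and 11.2 CPM in TK and 32.5, 39.3, 26.6 and 42.4 CPM in DB (-1.22, SE 0.10, adjusted p = 1.3e-06). Here the dumbbell cells did not differ from control (-0.14, adjusted p = 0.24) and the TK cells did (-1.36). Tenascin gene TNC differed by -0.41 (SE 0.10). VIM, the gene of vimentin, was called at -0.39 (SE 0.11, adjusted p = 0.030) but does not hold.

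Of 23 epithelial junction genes 8 were lower in TK than in DB, none was higher and 5 hold, with a median of -0.12 (-0.05 inside run 2). DSG3, a desmosomal cadherin, had 167, 190, 186 and 193 CPM in TK and 320, 286, 247 and 309 CPM in DB, where the untreated libraries had 144 to 179 CPM. Its difference was -0.61 (SE 0.10, adjusted p = 0.0008). CDH1, the gene of E-cadherin, had 196 to 212 CPM in TK and 273 to 324 CPM in DB (-0.47, SE 0.07, adjusted p = 0.0003). CDH3, the gene of P-cadherin, differed by -0.54 (SE 0.08), and the tight junction genes OCLN and CLDN4 by -0.48 (SE 0.09) and -0.44 (SE 0.10). The other 15 genes were not called between TK and DB. Relative to control, 14 of 23 were called higher in DB, and 2 higher and 1 lower in TK.

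Immediate early and ERK-induced genes were lower in TK. Of 27 measured, 12 were lower than in DB and none higher, and 10 hold against DB C alone (median -0.32, and -0.42 inside run 2). EGR3, an immediate early transcription factor, had 7.99, 10.1, 9.07 and 7.87 CPM in TK and 25.4, 34.0, 26.4 and 30.2 CPM in DB, with 9.68 to 14.4 CPM in untreated cells. The groups did not overlap, and the DB libraries of the 3 runs lay close to one another. The difference was -1.54 (SE 0.13, adjusted p = 1.1e-06). DB differed from control by 1.22 and TK by -0.32 (adjusted p = 0.057). EGR2, its relative, was at most 1.08 CPM in TK and 1.80 to 6.21 CPM in DB (-2.02, SE 0.39, adjusted p = 0.0023).

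FOS, a partner in AP-1, had 25.5, 25.4, 25.9 and 24.6 CPM in TK and 118, 99.9, 63.3 and 150 CPM in DB. The untreated libraries of run 2 had 52.0 to 96.4 CPM, which surround DB C. FOS thus differed by -1.20 between TK and DB (SE 0.19, adjusted p = 0.00051), by -1.56 between TK and control and by -0.36 between DB and control. EGR1 had 160 to 183 CPM in TK and 173, 321, 321 and 363 CPM in DB, where DB A overlaps TK (-0.75, SE 0.17, adjusted p = 0.0085). The EGF receptor ligand HBEGF, by contrast with FOS, was near control in TK (0.25) and higher in DB (0.98), with -0.73 between them (SE 0.12). DUSP6 and SPRY4, feedback inhibitors of the ERK pathway, differed by -0.58 (SE 0.09) and -0.37 (SE 0.08). The list therefore holds genes lower than control in TK (9 of 27) beside genes higher than control in DB (9 of 27).

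**Figure D3:**
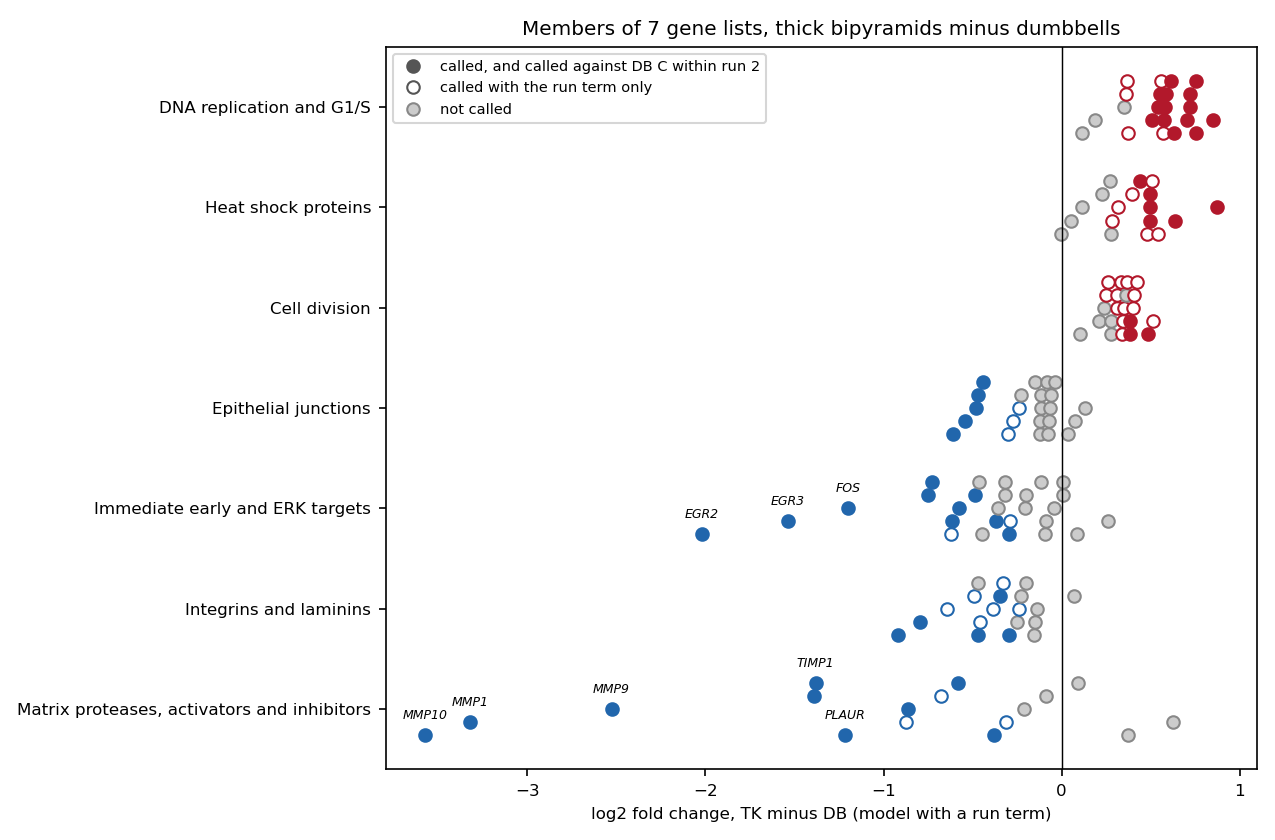
Each circle is 1 measured gene of 7 lists at its log2 difference between TK and DB in the run term model; filled circles are called and hold against DB C alone, open ones are called with the run term only, and grey ones are not called. In the DNA replication, heat shock and cell division lists every called gene is to the right of 0, and in the other 4 lists every called gene is to the left, with MMP10 and MMP1 at -3.57 and -3.32.

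DNA replication genes were higher in TK. Of 22 genes of replication and entry into S phase, 19 were higher than in DB and none lower, and 14 hold against DB C alone. The median was 0.57 (0.48 inside run 2), and 21 of the 22 did not overlap between the 4 TK and 4 DB libraries, against 28.6% of all genes. Relative to control, 16 were higher in TK and 11 lower in DB, with none the other way, and the list medians were 0.33 and -0.24. CDC6, which loads the replicative helicase onto DNA (chromosome 17, 40287633 to 40304657), had 68.7, 63.7, 73.2 and 63.2 CPM in TK, 37.0, 37.8, 46.3 and 25.2 CPM in DB and 41.7 to 48.2 CPM in untreated cells. The difference was 0.76 (SE 0.11, adjusted p = 0.0003), with 0.49 for TK against control and -0.27 for DB (adjusted p = 0.052).

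CCNE2, a cyclin that drives entry into S phase, had 7.64, 8.17, 10.6 and 8.38 CPM in TK and 6.46, 6.82, 4.43 and 3.99 CPM in DB (0.85, SE 0.17, adjusted p = 0.0027). Helicase subunit gene MCM4 had 179 to 190 CPM in TK and 87.1 to 120 CPM in DB (0.70, SE 0.08, adjusted p = 4.2e-05), and MCM2, MCM3, MCM5 and MCM6 differed by 0.51 to 0.59. The flap nuclease gene FEN1 differed by 0.75 (SE 0.09), the nucleotide reductase subunit gene RRM2 by 0.72 (SE 0.08), and PCNA, the sliding clamp, by 0.63 (SE 0.11). Outside the list, CLSPN, whose product claspin signals stalled replication forks (chromosome 1, 35720218 to 35769967), was among the largest rises that hold at an average of at least 5 CPM. It had 33.6, 32.5, 34.8 and 33.3 CPM in TK and 16.7, 13.8, 16.9 and 10.6 CPM in DB (1.06, SE 0.14, adjusted p = 0.00013). Its untreated range, 16.4 to 23.1 CPM, lay below all TK libraries. The factor gene E2F1 itself was not called (0.35, SE 0.13, adjusted p = 0.081), nor were CDT1 and RRM1.

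The promoters of 3 genes of this list are shown, since genes of DNA replication are textbook targets of E2F and moved together here. MCM3 and MCM6 were picked among the windows that hold the motif and CDC6 as the member named above. The bases come from the same RefSeq table, the 250 before each start. Capitals mark TTTNNCGC or its reverse complement GCGNNAAA, which overlap in MCM6. MCM3 lies at chr6:52284743-52284992 (minus strand), MCM6 at chr2:135876444-135876693 (minus strand) and CDC6 at chr17:40287629-40287878 (plus strand).
MCM3: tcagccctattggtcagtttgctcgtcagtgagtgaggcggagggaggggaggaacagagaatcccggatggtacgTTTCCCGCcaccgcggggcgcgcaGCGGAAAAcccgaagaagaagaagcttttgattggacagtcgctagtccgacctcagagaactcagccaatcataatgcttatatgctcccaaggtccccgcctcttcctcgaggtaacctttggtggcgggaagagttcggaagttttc
MCM6: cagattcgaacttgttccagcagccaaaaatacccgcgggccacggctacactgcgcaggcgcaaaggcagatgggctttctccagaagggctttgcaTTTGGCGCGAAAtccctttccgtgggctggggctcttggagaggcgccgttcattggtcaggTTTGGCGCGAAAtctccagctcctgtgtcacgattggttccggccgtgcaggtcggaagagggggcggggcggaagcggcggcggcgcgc
CDC6: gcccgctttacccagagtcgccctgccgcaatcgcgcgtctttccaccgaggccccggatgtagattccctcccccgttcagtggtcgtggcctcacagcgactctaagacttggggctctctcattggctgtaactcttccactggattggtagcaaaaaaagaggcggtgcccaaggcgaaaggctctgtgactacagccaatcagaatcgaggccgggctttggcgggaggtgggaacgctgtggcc
MCM3 holds 2 matches, beginning 174 and 150 bases before its start, and MCM6 holds 4, the overlapping pairs at 152 and 148 and at 90 and 86 bases. CDC6 holds none, which says only that these letters are not in this window. For 18 of the 22 genes of the list a window was matched, 26 windows in all, so that some genes count more than once. Of these windows 11 (42.3%) hold the motif, against 5.92% of all 35116 windows. The list was drawn from textbook targets of E2F, so a higher share was to be found whatever the values in these libraries. A match describes the letters, and whether E2F binds or acts here was not tested.

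Cell division genes showed smaller differences. Of 22 genes 16 were higher in TK than in DB and none lower, with a median of 0.34, but only 3 hold against DB C alone: KIF20A, CDC20 and TPX2. KIF20A, a kinesin of cytokinesis, had 136, 135, 137 and 141 CPM in TK and 102, 92.4, 96.7 and 96.9 CPM in DB, with 118 to 144 CPM in untreated cells (0.49, SE 0.07, adjusted p = 0.0004). TK did not differ from control (0.04, adjusted p = 0.70) and DB did (-0.45). CDC20, an activator of mitotic exit, differed by 0.38 (SE 0.11). MKI67, the proliferation marker, had 405 to 473 CPM in TK and 266 to 325 CPM in DB (0.51, SE 0.13, adjusted p = 0.012), with an adjusted p of 0.09 inside run 2. Over the list 4 members were higher in TK than in control and 10 lower in DB. In bulk RNA, fewer cells in a phase and less RNA per cell cannot be told apart.

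Heat shock proteins, the chaperones that fold and refold proteins, were higher in TK than in DB in 12 of 18 cases, and none was lower. The median was 0.42 (0.35 inside run 2) and 6 hold against DB C alone. HSPE1, the mitochondrial co-chaperonin (chromosome 2, 197499994 to 197503457), had 305, 290, 318 and 288 CPM in TK and 150, 141, 184 and 97.7 CPM in DB. The difference was 0.87 (SE 0.13, adjusted p = 0.00031). TK did not differ from control (0.19, adjusted p = 0.23) while DB did (-0.69). AHSA1, which activates HSP90, had 138 to 167 CPM in TK and 82.4 to 101 CPM in DB (0.64, SE 0.09), and HSP90AA1, DNAJA1 and STIP1 differed by 0.44, 0.49 and 0.50. HSPB1 holds too (0.49, SE 0.11), although in CPM 3 of the DB libraries lay above TK, since its untreated level was 144 to 172 CPM in runs 1 and 3 and 75.2 to 93.9 CPM in run 2. HSPA1A, the inducible HSP70 gene, was below control in both groups, by -0.86 in TK and -1.34 in DB. It was called between them (0.48, SE 0.12, adjusted p = 0.015) but does not hold, and without the run term the difference was -0.02. Its reads cannot be told apart from those of the near-identical copy HSPA1B. For the list as a whole 13 of 18 were lower than control in DB and none higher, against 4 higher and 4 lower in TK.

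**Figure D4:**
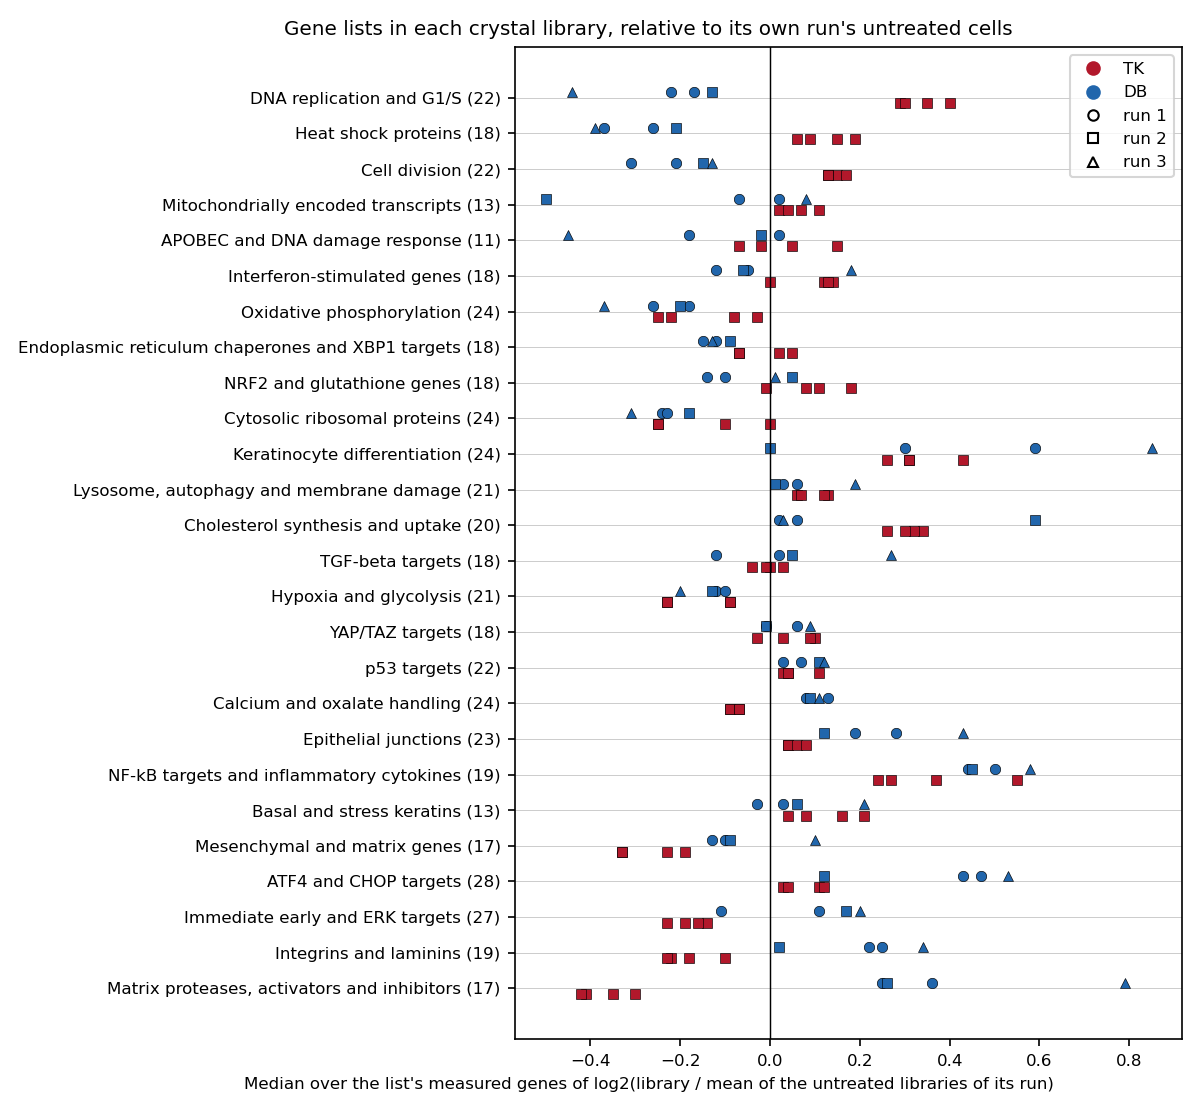
For each gene list with at least 11 measured members (number in brackets) the horizontal axis gives the median over its genes of the log2 ratio of a library to the mean of the untreated libraries of its own run, in red for the 4 TK and blue for the 4 DB libraries, with circles, squares and triangles for runs 1, 2 and 3. The 4 TK libraries lie between 0.29 and 0.40 for DNA replication, where DB lies between -0.44 and -0.13, and between -0.42 and -0.30 for matrix proteases, where DB lies between 0.25 and 0.79.

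Inflammatory genes did not follow 1 direction. Of 19 NF-kB targets and cytokines 3 were higher in TK than in DB (CCL2, CXCL1 and CXCL2) and 4 lower (ICAM1, IL1B, LIF and IL1A), with a median of -0.13. CCL2, a chemokine for monocytes, had 6.63, 6.40, 5.62 and 5.09 CPM in TK and 1.72, 1.79, 1.84 and 1.21 CPM in DB, with 1.80 to 3.09 CPM in untreated cells (1.86, SE 0.23, adjusted p = 9.2e-05). CXCL1, which attracts neutrophils, had 244 to 273 CPM in TK and 140 to 188 CPM in DB (0.54, SE 0.07), and both chemokines hold. LIF, the gene of leukemia inhibitory factor, had 447, 485, 455 and 442 CPM in TK and 709, 717, 649 and 835 CPM in DB (-0.57, SE 0.08, adjusted p = 0.00021). The adhesion receptor gene ICAM1 differed by -0.76 (SE 0.10). IL1B, the gene of interleukin-1 beta, had 72.7 to 79.2 CPM in TK and 291, 249, 92.7 and 297 CPM in DB (-0.65, SE 0.14, adjusted p = 0.0055), but inside run 2 it was -0.30 (adjusted p = 0.21). PTGS2, the cyclooxygenase-2 gene, had 47.9, 52.2, 52.8 and 50.7 CPM in TK and 57.6, 53.8, 48.2 and 62.5 CPM in DB, and 13 to 24 CPM in untreated cells. TK and DB overlapped, and their difference was -0.20 with a 95% interval of -0.56 to 0.16 (adjusted p = 0.50). Each was above control, by 1.39 and 1.59. Relative to control 11 of the 19 genes were higher in TK and 13 in DB.

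Among 18 targets of TGF-beta, all 5 genes called hold against DB C alone, 2 higher and 3 lower in TK. SMAD6, an inhibitor of BMP signals, had 6.16, 6.64, 7.22 and 5.19 CPM in TK and 1.11, 2.15, 2.19 and 1.76 CPM in DB, with 3.65 to 6.10 CPM in untreated cells (1.91, SE 0.24, adjusted p = 9.3e-05). ID3, a BMP target, had 28.3 to 37.8 CPM in TK and 16.8 to 23.1 CPM in DB (0.71, SE 0.15). For both, DB lay below control (-1.51 and -0.68) and TK near it (0.40 and 0.04). LTBP2 and BHLHE40 were among the 3 lower.

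Calcium and oxalate handling genes were lower in TK in 9 of 24 cases and higher in none (median -0.11), and 3 hold. CAMK2N1, an inhibitor of the calcium-dependent kinase CaMKII, had 56.7, 54.3, 46.9 and 51.7 CPM in TK and 115, 130, 91.5 and 130 CPM in DB (-0.82, SE 0.09, adjusted p = 2e-05), with TK below control (-0.82) and no difference called between DB and control (adjusted p = 0.98). TRPV4, a calcium channel, differed by -0.55 (SE 0.10) and SLC20A1, a phosphate transporter, by -0.57 (SE 0.10). SPP1, the gene of osteopontin, which binds calcium crystals, was below 1 CPM in all 15 libraries, and its difference of 0.51 had a 95% interval of -0.59 to 1.6. Outside the list, TRPV3, another calcium channel (chromosome 17, 3510502 to 3557995), had 2.37, 3.96, 2.90 and 3.08 CPM in TK and 14.9, 11.8, 20.9 and 19.5 CPM in DB (-2.24, SE 0.26, adjusted p = 4.2e-05). CAMK2B, a CaMKII subunit gene (chromosome 7, 44217150 to 44334577), had 14.3, 9.39, 11.9 and 10.8 CPM in TK and 35.8, 42.3, 51.0 and 40.4 CPM in DB (-2.15, SE 0.18, adjusted p = 1.1e-06). Its untreated range of 19.5 to 43.5 CPM lay above all TK libraries.

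Other genes among the largest falls that hold at that level were PTPRH, a receptor phosphatase, CHI3L1, a secreted glycoprotein of inflamed tissue, and FGFR1, a fibroblast growth factor receptor. FGFR1 had 39.5, 36.0, 40.7 and 38.8 CPM in TK and 68.1, 74.2, 98.5 and 72.7 CPM in DB, a difference of -1.52 (SE 0.10, adjusted p = 9.3e-08). Its untreated level was 90.1 to 96.6 CPM in run 2, next to DB C, so that TK lay below control by -1.24 and DB above by 0.28. CHI3L1 differed by -1.54 (SE 0.16) and PTPRH by -1.88 (SE 0.26). PTPRH had 0.874 to 1.54 CPM in TK and 9.95, 12.4, 2.93 and 14.1 CPM in DB, and inside run 2 the difference was -1.42. NDRG1, a stress-induced gene on the hypoxia list, had 71.1 to 98.4 CPM in TK and 142 to 209 CPM in DB (-0.95, SE 0.12). APOBEC3G, a cytidine deaminase gene, had 9.0, 6.28, 8.58 and 6.27 CPM in TK and 40.2, 55.6, 19.1 and 38.0 CPM in DB (-1.22, SE 0.20). Its untreated level was 15.1 to 16.9 CPM in run 2 and 32.1 to 50.3 CPM elsewhere. TK lay below control (-1.13), and DB was not called against it (0.09, adjusted p = 0.75). The relatives APOBEC3F and APOBEC3C were lower in TK than in DB too (-0.67 and -0.39).

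The largest rises that hold at an average of at least 5 CPM were smaller than the falls. CCL2 and SMAD6 hold with larger rises, 1.86 and 1.91, but averaged only 3.79 and 4.05 CPM. The average is over TK and DB. The falls PTPRH and TRPV3 thus passed it through DB, with means of 1.1 and 3.08 CPM in TK. BCYRN1, which encodes a small untranslated RNA and has related copies in the genome, had 45.1, 41.7, 48.3 and 32.0 CPM in TK and 11.1, 7.19, 15.6 and 10.1 CPM in DB (1.39, SE 0.24, adjusted p = 0.00099). Reads of its copies cannot be told apart, and with a term for fragment length the difference was 1.35. DB lay below control (-1.20) and TK did not differ from it (0.18, adjusted p = 0.53). DKK1, a secreted inhibitor of Wnt signals, had 43.5, 37.9, 44.7 and 43.5 CPM in TK and 38.7, 43.0, 19.1 and 34.5 CPM in DB (0.96, SE 0.10, adjusted p = 2.1e-05). In CPM the TK libraries overlap DB A and B, which are of run 1, and lie above DB C. The untreated libraries had 26.4 to 30.5 CPM in run 2 and 43.8 to 46.2 CPM elsewhere. Inside run 2 the DKK1 difference was 1.14. Without the run term the difference between TK and DB was 0.32 (adjusted p = 0.30). ANGPTL4, a lipase inhibitor, behaved alike. It was at 1.11 (SE 0.21) with the run term, 1.34 inside run 2 and 0.21 (adjusted p = 0.67) without the term. ABCC2, an efflux transporter of the cell surface, had 33.8 to 40.5 CPM in TK, 21 CPM in DB C and 6.59 to 8.92 CPM in the other DB libraries (0.92, SE 0.12). FAM111B, PSMC3IP, a cofactor of recombination, and CD3EAP, a subunit of RNA polymerase I, rose by 0.98 (SE 0.15), 0.91 (SE 0.16) and 0.89 (SE 0.12).

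Genes of the stress response through ATF4 depended on the run. Of 28 targets of ATF4 and CHOP 9 were lower in TK than in DB and 1 higher with the run term, but 2 were lower inside run 2 and 1 without the run term. The median was -0.27, and -0.09 inside run 2. CHAC1, a glutathione-degrading enzyme, had 27.5 to 34.9 CPM in TK and 17.7, 27, 32 and 34.9 CPM in DB, which overlap. Its untreated level was 2.93 to 3.16 CPM in runs 1 and 3 and 15.8 to 20.7 CPM in run 2. The run term gave -1.13 (SE 0.36, adjusted p = 0.046), the fit inside run 2 -0.03 and the fit without the run term 0.18. DDIT3, which encodes CHOP, and CEBPB do hold, at -0.95 (SE 0.14) and -1.02 (SE 0.23). DDIT3 had 12.3 to 15.4 CPM in TK and 8.43, 8.65, 26 and 15 CPM in DB, so that the groups overlap and DB A and B lie below every TK library. Its untreated level was 8.54 to 12.6 CPM in run 2 and 3.58 to 5.95 CPM elsewhere, and inside run 2 the difference was -0.96. CEBPB had 90.8 to 123 CPM in TK and 83.4, 65.5, 210 and 217 CPM in DB, which overlap as well. It lost its call without the run term (-0.52, adjusted p = 0.30), over the 8 TK and DB libraries alone (-0.53, adjusted p = 0.24), with the replicate block (-0.35, adjusted p = 0.41) and without DB C (-0.98, adjusted p = 0.051).

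Cholesterol genes also turned on a single library. With the run term 3 of 20 were lower in TK than in DB, inside run 2 10 were lower, and without DB C none was lower and 8 were higher. Relative to its run's untreated libraries the list's median was 0.59 in DB C and 0.02 to 0.06 in the other DB libraries, against 0.26 to 0.34 in TK. HMGCS1, an early enzyme of the pathway, was the gene whose dumbbell effect differed between runs 1 and 2, with 329, 323, 509 and 247 CPM in DB A to D. It had 304.5 to 324.3 CPM in TK.

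Keratinocyte differentiation also depended on the run. With the run term 4 of 24 genes were lower in TK and 1 higher, with a median of 0.04. Inside run 2 there were 3 lower and 5 higher with a median of 0.27, and without the run term 8 lower and 2 higher with a median of -0.51. SPRR3 and IVL, genes of the cornified envelope, and the keratin genes KRT4 and KRT13 were higher than DB C inside run 2 (2.38, 0.99, 1.12 and 0.92) and not called with the run term. SPRR3 had 1.85 to 2.61 CPM in TK, 0.403 CPM in DB C and 5.86 to 7.79 CPM in the other DB libraries. The 4 that were lower with the run term include the cornified envelope genes SPRR2A and SPRR2D (-0.96, SE 0.18, and -0.86, SE 0.12), close paralogs that cannot be surely separated, and ZNF750, a regulator of epidermal differentiation (-0.80, SE 0.15), which does not hold. Other lists held few differences. Of 13 basal and stress keratins 2 were higher and 2 lower, and KRT5 overlapped between TK and DB (0.11, 95% interval -0.07 to 0.29). YAP/TAZ targets had 3 higher, all of which hold (FJX1, AJUBA and AMOTL2), and 3 lower of 18, p53 targets 3 and 3 of 22, and genes of hypoxia and glycolysis 2 higher and 3 lower of 21. Of 18 chaperones of the endoplasmic reticulum 4 were higher and 2 lower, of 21 lysosome and autophagy genes 3 and 3, and of 11 APOBEC and DNA damage genes 4 and 3. NRF2 targets had 3 of 18 higher and none lower, with HMOX1 at 2.13 to 3.70 CPM in TK and 2.65 to 4.24 CPM in DB (-0.09, 95% interval -0.61 to 0.44). Ribosomal protein genes had 3 of 24 higher, none of which holds, and interferon-stimulated genes 2 of 18. No gene of 24 for oxidative phosphorylation and none of 13 encoded by the mitochondrial genome was called with the run term. The mitochondrial list's median was 0.26 with the run term, 0.58 inside run 2 and -0.63 without the term. Relative to its run's untreated libraries it was -0.50 in DB C, -0.07 to 0.08 in the other DB libraries and 0.02 to 0.11 in TK. Relative to the TMM-adjusted library size, mitochondrial transcripts made up 2.87 to 2.92% in TK and 2.14 to 5.88% in DB. The untreated libraries ranged as widely as DB, from 2.2 to 6.15%.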

How the data were processed

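The study sequenced 27 poly(A) RNA libraries, of which 15 enter here (4 TK, 4 DB and 7 untreated), grouped by their titles. The authors deposited expected counts per gene with lengths for each library, per the file headers. RSEM, Bowtie2, Trim Galore and the build GRCh38 are listed in the submitters' processing notes, without versions or roles. The annotation release and strand setting are not stated. RSEM shares reads between similar genes, so paralogs are uncertain, and overlapping antisense genes cannot be told apart. Other deposited units were not used.

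Expected counts were rounded and tested in R 4.3.3 with edgeR 4.0.16 (quasi-likelihood F-test, TMM, filterByExpr), with a mean for each group and a term for the run, over 15 libraries. The fit inside run 2 used 9 libraries, and the test of the dumbbell effect between runs 11. Of 60683 genes 15646 were tested, and adjusted p-values cover all of them. Fold changes are log2, and the SE is the log2 fold change divided by the root of F. Log2 ratios of single libraries to untreated libraries used a prior count of 2. Coordinates are GENCODE 29's (GRCh38), matched for 99% of tested genes. The scripts were tested on simulated data. Total counts per library limit precision to counting error at low levels.

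The comparison, its gene lists and the genes followed were chosen with earlier results of these data known. Named genes are the 8 largest rises and falls with at least 5 CPM that hold against DB C alone, the 2 most changed called members of each list with at least 3 called, 16 genes followed throughout, and list members given as examples or for their role, which were chosen after their values were seen. Some genes that the rule names are not reported here. Alternatives covered the run term, libraries used, normalization (with DESeq2 1.42.0), filters, fragment length, a fold threshold, the replicate letter and each library left out.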

Additional observations from a re-analysis of the deposited data

Results flagged for a closer look

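Among 69 named genes in 3 groups, 207 groups of 4 or 7 libraries were examined for 1 library standing apart from the others, and 11 (5.31%) had one, where chance gives about 1 in 20. DB C was the library in 5 of the 11. It had the highest level of the DB libraries for ABCC2 (21 CPM, the next 8.92), AHSA1 (101 CPM, the next 84.4), GSR (90.4 CPM, the next 72.8) and KRT5 (2990 CPM, the next 2110), and the lowest for HSPA1A (31.4 CPM, the next 43.6). DB C is the only DB library of run 2, and these levels are not adjusted for the run. Relative to the untreated libraries of its run, log2 ABCC2 was -0.11 in DB C and -0.55 to -0.20 in the other DB libraries. In the same order AHSA1 was -0.34 against -0.58 to -0.40, and GSR -0.20 against -0.30 to -0.11. KRT5 was 0.02 against -0.26 to -0.18, and HSPA1A -1.21 against -1.515 to -1.33. TK A was highest for CEBPB (123 CPM, the next 95.2) and TK C for SDF2L1 (37.3 CPM, the next 31.4). Of the untreated libraries Control B was highest for FN1 (163 CPM), CCNE2 (6.15 CPM) and CDH1 (254 CPM), and Control A for VIM (1170 CPM, the next 970).

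The dumbbell effect on HMGCS1, a gene of cholesterol synthesis, differed between runs, with log2 -1.37 for run 1 less run 2 (SE 0.13, adjusted p = 0.0048, edgeR). It was 0.02 and -0.01 in DB A and B, 1.37 in DB C and -0.35 in DB D relative to the untreated libraries of each run. The TK libraries lay between 0.63 and 0.72.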

How the results depend on the processing

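Of 69 named genes, 49 kept their direction and their side of the threshold under each of the 26 alternatives run for them, and KRT5 was called higher in TK without the run term (0.38). The number called between TK and DB, 2117, became 4315 (2199 higher, 2116 lower) without the run term. It was 4511 (2185 and 2326) over the 8 TK and DB libraries, also without the run term, where only DB C shares TK's run. It was 539 (152 and 387) at a fold of at least 1.5. With a replicate block over the letters it was 3890 (1915 and 1975). The letters do not pair the libraries: same-letter correlations of TK with DB were -0.073, -0.058, 0.012 and -0.072 for A to D, and not every library correlated best with its own letter. Leaving out 1 library gave 1449 (without DB C, 689 higher) to 2366 (without Control D); higher calls ranged from 689 to 1153 and lower calls from 760 to 1213. The count inside run 2, 802, was 1267 over TK and DB C alone and 1242 without a filter on low counts, and 415 (without TK A) to 1748 (without Control D) with 1 library left out, 493 without TK C. Genes that hold against DB C alone, 709, were 286 at the fold threshold and 369 (without TK A) to 1345 (without Control D), 428 without TK C. The dumbbell effect differed between runs in 29 genes by DESeq2, and in 0 (without DB B) to 6 (without Control D) with 1 library left out, 3 without DB A and 2 without Control C or E. CHAC1 turned from -1.13 to 0.18, 0.17 and 0.20 without the run term, over 8 libraries and with the block. In the same fits, which differ in the run term, HSPA1A turned from 0.48 to -0.02, -0.03 and -0.03. With a run term kept, CHAC1 also lost its call in 18 of the 26 alternatives. Among them were the fits over all 27 libraries, with the fragment length term and without run 3. Depth limits genes such as MMP9 and EGR2, which rest on few reads in TK.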
